A study of Mus musculus with 30 samples.

Results

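The genes examined were 10 components of Notch signalling and of the segmentation clock in differentiating mouse embryonic stem cells (ESCs), out of 54134 rows of the count table. The choice was by name and role, with earlier results of these data known. These genes comprised the ligands Dll1 and Dll3, the receptor Notch1, the modulators Lfng and Nrarp, the transcriptional repressors Hes1, Hes5 and Hes7, and the segment boundary genes Mesp2 and Ripply2. Of the 10 genes, 8 had enough counts to be tested, and Nrarp and Ripply2 did not.

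RNAseq libraries were made from Bruce4 ESCs that were either wildtype or Nr6a1-/-, the latter a single clone with CRISPR/Cas9 deletions in exon 4 of Nr6a1, an orphan nuclear receptor that acts as a transcriptional repressor. Cells of both genotypes received FGF2 throughout and were collected after 48 h of FGF2 alone (d2), after a further 12 h or 24 h in which the Wnt pathway agonist CHIR99021 was also present (d2.5 and d3), and after another 24 h in FGF2 and CHIR99021, either without (d4) or with (d4G) the growth factor Gdf11. The protocol takes ESCs through an epiblast-like state to neuromesodermal progenitors (NMPs), the bipotent cells that supply spinal cord and paraxial mesoderm to the elongating embryo, and Gdf11 is the signal that ends trunk formation in favour of the tail. Each of the 10 groups of stage and genotype held 3 replicates, and since the Nr6a1-/- cells were 1 clone, an effect of the genotype and a property of that clone cannot be told apart. By the sample descriptions, each d4 library carries the same index as a d3 or d4G library of its genotype and replicate number. Libraries of the same index cannot be told apart by it within a pool, and the pools are not given. The shared index is that of a d4G library for all d4 wildtype libraries and for d4 Nr6a1-/- replicate 1. For d4 Nr6a1-/- replicates 2 and 3 it is that of a d3 library. The changes from d3 to d4 and from d4 to d4G may thus hold a difference between pools, which cannot be told apart from them. The same holds for the comparison of genotypes at d4 and for the interactions that use d4.

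In the presomitic mesoderm, the tissue that buds off somites, Notch ligands on one cell activate Notch receptors on the next, the cut receptor enters the nucleus, and with the DNA-binding protein RBPJ it turns on genes of the Hes family. Hes7 and Lfng are switched on by this route and then shut it down again, Hes7 by repressing its own promoter and that of Lfng, and Lfng by adding sugars to Notch, so that their RNAs come and go once per somite. The clock runs independently in each cell unless neighbours are coupled, and a library of many cells averages over its phases. Where the waves end, Mesp2 sets the next segment boundary and Ripply2 switches Mesp2 off again.

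Library totals ranged from 1570714 to 3688197 counts with a median of 2366002, and levels are given as CPM, each count relative to the total of its library after TMM scaling, of which 3 counts in a library, taken as the limit that a count of 0 allows, made 0.829 to 1.91. The libraries read 3′ ends of RNA, so a CPM follows the number of molecules, and levels were compared between samples, not between genes. Nr6a1 RNA was not lower in Nr6a1-/- cells (177 ± 9.63 CPM in wildtype and 287 ± 29.2 in Nr6a1-/- cells at d3, SD, n = 3), which checks nothing, because a 3′ tag lies outside the deleted exon. At d3 both genotypes held RNA of the NMP markers T (309 ± 11.2 CPM in wildtype and 504 ± 35.4 in Nr6a1-/-) and Sox2 (78.5 ± 3.79 and 75.2 ± 7.27). The library d4 wildtype replicate 2 stood apart, with a summed level of 5 epiblast markers of 134 CPM against 23.1 and 18.6 in the other d4 wildtype libraries, and results that rest on it are given with and without it. The library d4 Nr6a1-/- replicate 1 also differed from its replicates. Its chi-square per gene was 5.64 against replicate 2 and 6.68 against replicate 3, the highest of all replicate pairs. Between d4 Nr6a1-/- replicates 2 and 3 it was 2.58. Replicate 1 also had the lowest TMM factor of all libraries (0.909).

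All 10 genes were placed in GENCODE on GRCm38. Dll1 lies on chromosome 17 (15367354 to 15376872, minus strand), Dll3 on chromosome 7 (28293553 to 28302238, minus), Notch1 on chromosome 2 (26457903 to 26516663, minus), Lfng on chromosome 5 (140607320 to 140615545, plus) and Nrarp on chromosome 2 (25180758 to 25183339, plus). Hes1 lies on chromosome 16 (30064384 to 30067796, plus), Hes5 on chromosome 4 (154960923 to 154962371, plus), Hes7 on chromosome 11 (69120404 to 69124055, plus), Mesp2 on chromosome 7 (79810727 to 79813439, plus) and Ripply2 on chromosome 9 (87015537 to 87019917, plus). Exons of 5 of them (Dll1, Notch1, Nrarp, Hes5 and Hes7) overlap exons of a gene on the other strand, and whether the counting used strand is not given in the sources used here.

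Because Notch acts on its target genes through RBPJ, the promoters of these genes were searched for the core of its binding site, TGGGAA on either strand. RefSeq promoters (GRCm38.p6) were matched for 9 of the 10 genes, with 2 for Dll1, and Hes1 was not among them. In the 250 bases upstream of the RefSeq start, 3 of these 10 promoters held the RBPJ core, those of Hes5, Lfng and Hes7, against 21.6% of 32851 promoters searched in the same way. A count of 3 in 10 is near that share. These 3 stretches are printed as the ones with an RBPJ core. Their genes rose at the last step of the time course and fell under Gdf11, as described further on. Dll1 did so too, without a core in either of its 2 promoters, and whether the core goes with these changes was not tested. Each runs 5′ to 3′ on the plus strand of GRCm38.p6, ends before the first exon annotated in GENCODE (for Lfng and Hes7 this lies upstream of the RefSeq start, and the rest of the window is not printed), and has the RBPJ cores in capitals. The Hes5 stretch is chr4:154960673-154960922, with cores that begin 226 and 82 bases before that exon in opposite orientations. The Lfng stretch is chr5:140607091-140607319, with cores that begin 114 and 87 bases before it, again in opposite orientations. The Hes7 stretch is chr11:69120203-69120403, with 1 core that begins 131 bases before it.
Hes5: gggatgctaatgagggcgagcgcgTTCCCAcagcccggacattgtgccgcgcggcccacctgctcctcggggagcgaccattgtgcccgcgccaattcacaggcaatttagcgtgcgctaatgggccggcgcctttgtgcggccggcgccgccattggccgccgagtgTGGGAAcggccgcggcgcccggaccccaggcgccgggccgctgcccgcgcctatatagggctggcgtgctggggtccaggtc
Lfng: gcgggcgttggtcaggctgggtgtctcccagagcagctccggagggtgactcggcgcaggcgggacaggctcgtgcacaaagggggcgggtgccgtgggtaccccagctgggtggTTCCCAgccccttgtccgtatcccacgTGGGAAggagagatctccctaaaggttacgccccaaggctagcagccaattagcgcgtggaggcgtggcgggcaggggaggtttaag
Hes7: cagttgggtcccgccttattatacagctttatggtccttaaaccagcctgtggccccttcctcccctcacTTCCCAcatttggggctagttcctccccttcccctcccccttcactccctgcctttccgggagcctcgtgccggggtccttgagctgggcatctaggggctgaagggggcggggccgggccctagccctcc

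Sites for the Hes repressors themselves were also searched on both strands. The N box, CACNAG, was found in 4 of the 10 promoters of these genes and in 36.7% of all, among them those of Hes7 and Lfng. The class C E box, CACGNG, which shares the letters CACGAG with the N box, was found in 7 of the 10 and in 23.5% of all. The Nr6a1 half-site TCAAGGTCA, present in 0.387% of all promoters, the TCF/LEF core CTTTGAT (3.21%) and the Smad box GTCTAGAC (0.167%) were not in these windows, and the T-box core GGTGTGA (3.33%) was in the Ripply2 promoter only. A match of letters says nothing about binding, and its absence from 250 bases nothing about the factor.

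The first question was when the genes came on as wildtype cells left the epiblast-like state. At d2 and d2.5, before and shortly after Wnt activation, Hes7, Hes5, Lfng, Notch1 and Mesp2 were at 3.06 CPM or less in every wildtype library, whereas Hes1 was well detected and was the only one to change between these stages. Dll3, Dll1 and Hes7 rose between d2.5 and d3, as NMPs formed, and Dll1, Dll3, Hes7, Hes5 and Lfng rose between d3 and d4. In each step the fold changes that follow are on the log2 scale with their standard error (SE), and FDR is the p-value of edgeR's quasi-likelihood test after Benjamini-Hochberg adjustment over 12149 genes.

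**Figure D1:**
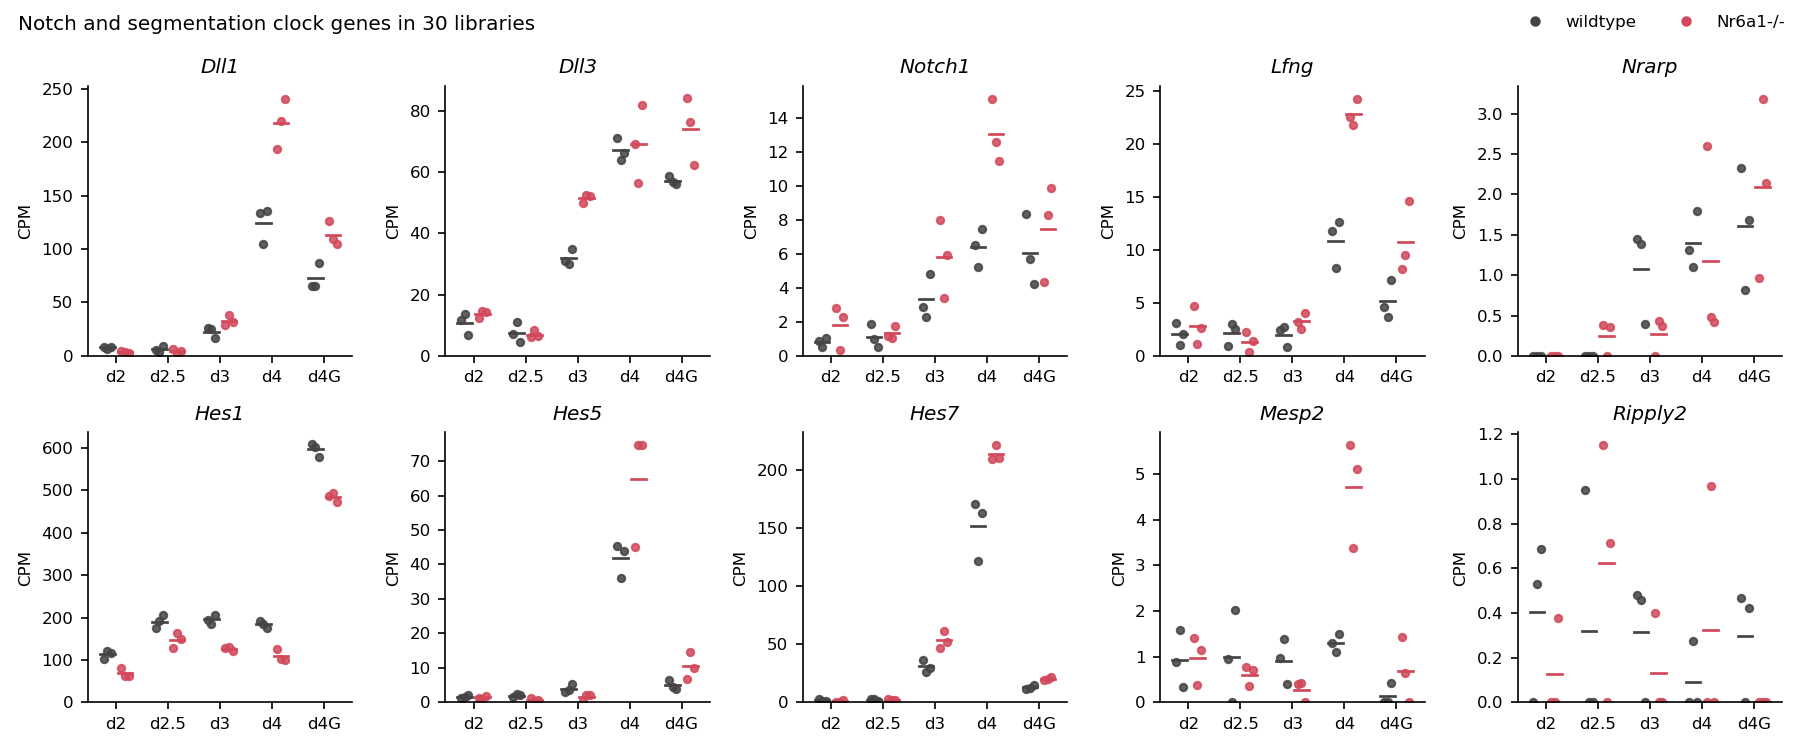
Level of each of the 10 genes in 30 libraries, as CPM on a linear axis that starts at 0 and differs between genes, against stage on the horizontal axis. Points are libraries, dark for wildtype and red for Nr6a1-/-, and short lines are means of 3; Hes7, Hes5, Lfng and Mesp2 are highest at d4 and drop at d4G, whereas Hes1 is highest at d4G.

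Dll1, the ligand that activates Notch in neighbouring cells, was at 5.72, 3.56 and 9.61 CPM in the d2.5 wildtype libraries, at 26.1, 25.3 and 16.8 at d3 and at 134, 105 and 135 at d4. The libraries of successive stages did not overlap from d2.5 on. Dll1 rose by 1.83 ± 0.28, FDR 9.23e-06 to d3 and by a further 2.46 ± 0.17, FDR 4.26e-14 to d4. Dll3, a related ligand that does not activate Notch in other cells and interferes with it inside the cell that makes it, was already at 11.8, 13.8 and 6.88 CPM at d2. It was at 7.15, 11.2 and 4.55 CPM at d2.5, 30.9, 29.9 and 34.8 at d3 and 71.1, 64.1 and 66.3 at d4, and rose in both of the last steps (2.06 ± 0.23, FDR 2.59e-08, and 1.07 ± 0.15, FDR 1.45e-06). The rise of Dll1 therefore went on at d4 with a larger fold change than that of Dll3.

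Notch1, the main receptor of the presomitic mesoderm, was detected at 2.90, 2.30 and 4.80 CPM at d3 and 6.54, 5.25 and 7.50 at d4. Each d4 library was above each d3 library, yet the step did not pass the test (0.90 ± 0.39, FDR 0.102), on 5 to 25 counts per library. Lfng, the glycosyltransferase that modifies Notch, stayed between 0.80 and 3.06 CPM from d2 to d3 and then stood at 11.8, 8.29 and 12.6 CPM at d4, a rise of 2.45 ± 0.42, FDR 3.20e-05.

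Among the repressors, Hes7, the core oscillator of the mouse clock, was at 2.86, 2.54 and 1.01 CPM at d2.5, 36.7, 26.2 and 30 at d3 and 171, 121 and 163 at d4. Both steps were larger than the spread between replicates (3.81 ± 0.31, FDR 1.72e-11, then 2.29 ± 0.14, FDR 8.13e-15). Hes5, which keeps neural progenitors undifferentiated and also follows Notch in the presomitic mesoderm, came on a step later, from 2.90, 3.68 and 5.20 CPM at d3 to 45.3, 36.2 and 43.8 at d4 (3.36 ± 0.27, FDR 4.71e-12). Hes1, a target of several signals besides Notch, behaved differently from both. It rose from 103, 121 and 117 CPM at d2 to 174, 191 and 206 at d2.5 (0.75 ± 0.10, FDR 4.78e-07), and was then level at 195, 186 and 207 at d3 and 191, 186 and 175 at d4, steps that did not pass the test (0.04 ± 0.10, FDR 0.851, and -0.09 ± 0.10, FDR 0.554).

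The boundary genes were barely detected in wildtype cells. Mesp2 had between 0 and 5 counts in each wildtype library, and its step from d3 to d4 did not pass the test (0.52 ± 0.72, FDR 0.666). Ripply2 had at most 3 counts summed over any wildtype group and at most 5 over any Nr6a1-/- group, which is too few to compare. Nrarp, which is induced by Notch and promotes the breakdown of the active receptor, had no count in the 3 wildtype libraries of d2 nor in those of d2.5, and had 3, 3 and 1 counts in those of d3. It reached 3, 4 and 6 counts in the d4 and 5, 2 and 4 in the d4G libraries.

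Counted together, 1 of the 8 tested genes rose from d2 to d2.5 in wildtype cells, where 25.4% of all tested genes were called in either direction. From d2.5 to d3, 3 rose (background 11.5%), and from d3 to d4, 5 rose (background 21.1%). The threshold was an FDR of 0.05. The median log2 fold change of the 8 genes over this last step was 1.68, against 0.00 over all tested genes.

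Nr6a1-/- cells were taken through the same steps, with 1 rise (Hes1, 1.12 ± 0.11, FDR 1.38e-10) and 1 fall (Dll3, -0.97 ± 0.25, FDR 0.00322) of the 8 genes from d2 to d2.5, against 24.1% of all genes called. From d2.5 to d3, 4 rose, against 15.9%, and these were Hes7 (4.43 ± 0.25, FDR 2.32e-16), Dll3 (2.87 ± 0.20, FDR 1.01e-13), Dll1 (2.72 ± 0.25, FDR 1.07e-10) and Notch1 (2.09 ± 0.48, FDR 0.00166). From d3 to d4, 7 rose, against 25.9%, with Hes5 (5.29 ± 0.30, FDR 2.12e-16) and Mesp2 (3.91 ± 0.72, FDR 6.19e-05) showing the largest fold changes. Mesp2 was kept by the filter on low counts through the d4 Nr6a1-/- group alone, so it could be tested in this step only by being high at d4, and without it 6 of 7 rose. Mesp2 and Notch1 passed the test of this step in Nr6a1-/- cells and not in wildtype cells, but the difference between the genotypes in the step did not pass its own test (FDR 0.0759 for Mesp2 and 0.851 for Notch1). The Notch1 call in Nr6a1-/- cells was lost without d3 Nr6a1-/- replicate 2 (FDR 0.0562). The rise of Dll3 in this step (0.43 ± 0.14, FDR 0.0225) was lost without any 1 of 4 of the 6 libraries concerned, all 3 of d3 Nr6a1-/- and d4 Nr6a1-/- replicate 3, with an FDR of 0.0521 to 0.201.

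The steps themselves differed between genotypes for 2 genes, each by an interaction term. In the change from d2 to d3, where 2.27% of all genes were called, Dll1 rose more in Nr6a1-/- than in wildtype cells by 1.66 ± 0.41, FDR 0.0163. It started lower, at 4.24, 4.12 and 3.03 CPM in the d2 Nr6a1-/- libraries against 8.75, 6.90 and 8.60 in wildtype, and ended higher, at 29.3, 38.5 and 31.6 against 26.1, 25.3 and 16.8 at d3. Neither end passed the test by itself (-1.11 ± 0.36, FDR 0.0738, and 0.55 ± 0.19, FDR 0.0594), although the libraries of the 2 genotypes did not overlap at either. The interaction lost its call without d2 wildtype replicate 1, d2 wildtype replicate 3 or d2 Nr6a1-/- replicate 3 (FDR 0.0514 to 0.0701).

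In the change from d3 to d4, where 5.72% of all genes were called, Hes5 rose more in Nr6a1-/- cells by 1.93 ± 0.54, FDR 0.0251. It was at 0.402, 2.14 and 2.23 CPM in d3 Nr6a1-/- libraries against 2.90, 3.68 and 5.20 in wildtype, a difference that did not pass the test (-1.30 ± 0.51, FDR 0.102) on 1 to 13 counts per library. This interaction lost its call without d3 wildtype replicate 3 (FDR 0.143), d3 Nr6a1-/- replicate 1 (0.117) or d4 Nr6a1-/- replicate 3 (0.0508), and its size rests on the few counts of d3.

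The second question was how these genes differed between Nr6a1-/- and wildtype cells at each stage. Hes1 was lower in Nr6a1-/- cells at all 5 stages. From d3 on, other genes of the clock were higher: Dll3 and Hes7 at d3, Dll1, Notch1, Lfng, Hes5, Hes7 and Mesp2 at d4, and Dll1 at d4G. Calls were most numerous at d4, with 7 of the 8 tested genes, where the share of all genes called was also highest (18.9%). Among these was Mesp2, which entered the test through the d4 Nr6a1-/- group alone. Without d4 wildtype replicate 2, 4 genes were called at d4.

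**Figure D2:**
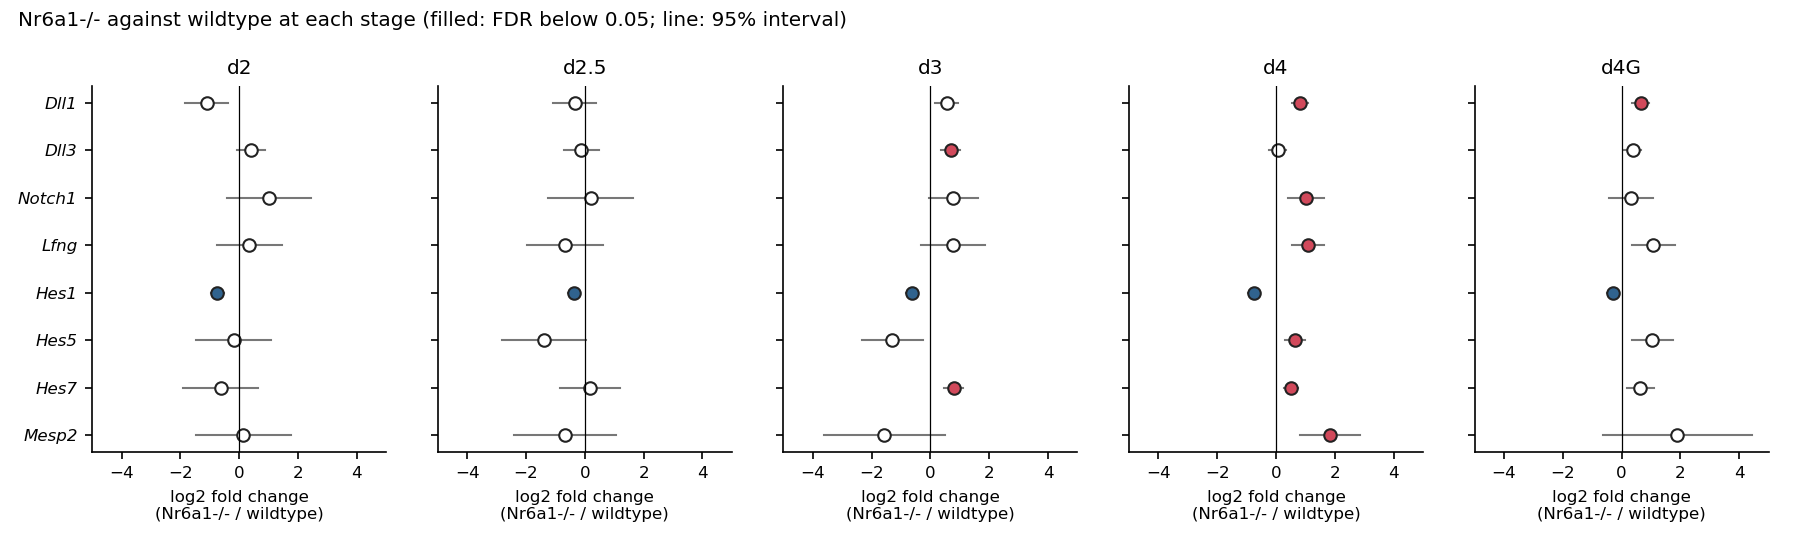
log2 fold change of Nr6a1-/- over wildtype for the 8 tested genes (rows) at 5 stages (panels), with 95% intervals that are not adjusted for the number of genes. Filled points have an FDR below 0.05, red for higher and blue for lower in Nr6a1-/-; Hes1 is lower at every stage, and 6 genes are higher at d4.

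At d2, where 4.07% of all genes were called, Hes1 was the 1 gene of the 8 to change. Its level was 103, 121 and 117 CPM in wildtype and 80.0, 62.2 and 62.6 in Nr6a1-/- libraries, a log2 fold change of -0.74 ± 0.11, FDR 1.37e-05. At d2.5 it was again the 1 gene called (background 6.45%), at 174, 191 and 206 CPM against 129, 164 and 149.5 (-0.37 ± 0.10, FDR 0.0161). The 2 genotypes did not overlap at either stage, but the d2.5 call was lost without d2.5 wildtype replicate 2 (FDR 0.0592), d2.5 wildtype replicate 3 (0.0904) or d2.5 Nr6a1-/- replicate 1 (0.125).

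At d3, the stage of NMPs, Nr6a1-/- cells differed from wildtype in 3 of the 8 genes, with 2 rises and 1 fall, against 10.8% of all genes. Hes7 was at 36.7, 26.2 and 30 CPM in wildtype and 47.0, 61.6 and 52.1 in Nr6a1-/- libraries (0.79 ± 0.16, FDR 7.05e-04). Dll3 was at 30.9, 29.9 and 34.8 CPM in wildtype and 49.8, 52.6 and 52.1 in Nr6a1-/- libraries (0.69 ± 0.16, FDR 0.00301). For both genes the lowest Nr6a1-/- library lay above the highest wildtype library. Hes1, in contrast, was at 195, 186 and 207 CPM against 129, 131 and 121 in Nr6a1-/- libraries (-0.63 ± 0.10, FDR 2.20e-05). Beside these, the summed NMP markers were higher in the d3 Nr6a1-/- libraries (851 to 992 CPM against 592 to 624), but Sox2 of this list was not (means of 75.2 against 78.5). Those of presomitic mesoderm were also higher (295 to 323 against 265 to 274). In this list Rspo3 (104 against 71.3) and Tbx6 (25.5 against 13.0) were higher, and Cited1 was not (173 against 186). Markers of endoderm (3.72 to 6.02 against 28.5 to 31.8) and neural progenitors (6.83 to 9.67 against 14.3 to 16.4) were lower. The somite sum was lower too (means of 5.87 against 9.10), through Pax3 (1.08 against 3.83). Tcf15 was at 4.53 against 4.79, and the other somite markers had at most 3 counts in a group. None of the 5 lists overlapped between genotypes. Their part in the levels of the clock genes was not tested. In libraries of many cells, a change in the number of cells of a type and a change in RNA per cell cannot be told apart.

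At d4 the genes were higher in Nr6a1-/- cells with the exception of Hes1, which was lower, and Dll3, which did not pass the test: 6 of the 8 rose and 1 fell, where 18.9% of all genes were called. Leaving aside Mesp2, which entered the test through the d4 Nr6a1-/- group alone, 5 of 7 rose. The median log2 fold change was 0.72 over the 8 genes, Mesp2 included, and 0.02 over all tested genes. Without Mesp2, the middle value of the 7 was that of Hes5 (0.64). Dll1 was at 134, 105 and 135 CPM in wildtype and 193, 220.1 and 241 in Nr6a1-/- libraries (0.81 ± 0.13, FDR 9.31e-06). Its receptor Notch1 was at 6.54, 5.25 and 7.50 CPM against 15.2, 12.6 and 11.5 (1.03 ± 0.30, FDR 0.0147), and Lfng at 11.8, 8.29 and 12.6 against 22.5, 21.8 and 24.3 (1.08 ± 0.26, FDR 0.00268). None of these 3 genes had a library of one genotype inside the range of the other.

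Dll3 was at 71.1, 64.1 and 66.3 CPM in wildtype and 69.3, 56.6 and 81.8 in Nr6a1-/- libraries at d4, and the groups overlapped (0.05 ± 0.14, FDR 0.832, 95% interval -0.22 to 0.33). Its higher level at d3 was thus not seen a day later, and the step from d3 to d4 was smaller in Nr6a1-/- cells by a difference that did not pass the test (-0.63 ± 0.21, FDR 0.0665).

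The repressors moved in both directions at d4. Hes7 was at 171, 121 and 163 CPM in wildtype and 209, 221 and 210.0 in Nr6a1-/- libraries (0.50 ± 0.12, FDR 0.00214), with no overlap. Hes5 was at 45.3, 36.2 and 43.8 CPM against 45.0, 74.5 and 74.6 (0.64 ± 0.17, FDR 0.00700), and here Nr6a1-/- replicate 1 lay within the wildtype range. Hes1 was at 191, 186 and 175 CPM against 126, 102 and 99.3 (-0.76 ± 0.10, FDR 3.44e-07), with no overlap and in the other direction.

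Mesp2 had 3, 4 and 5 counts in the d4 wildtype and 13, 7 and 12 in the d4 Nr6a1-/- libraries, or 1.31, 1.11 and 1.50 against 5.63, 3.39 and 5.11 CPM (1.83 ± 0.50, FDR 0.00773). The ratio of the pooled counts, adjusted for library size, was 3.67 with an exact 95% interval of 1.84 to 7.82 for counting error only. Since Mesp2 was kept by the filter through the d4 Nr6a1-/- group alone, it could enter this test only by being high there, and its FDR without the filter was 0.0235. Ripply2, which Mesp2 is known to induce, had 0, 1 and 0 counts in wildtype and 0, 2 and 0 in Nr6a1-/- libraries, and Nrarp 3, 4 and 6 against 6, 1 and 1, a ratio of pooled counts of 0.846 with an interval of 0.304 to 2.20, so that a change in either was not detectable at this depth.

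The library d4 wildtype replicate 2 had the lowest level of Dll1, Notch1, Lfng, Hes5 and Hes7 among the d4 wildtype libraries. Without it, 4 of the 8 genes were called in place of 7. Notch1 (0.87, FDR 0.0845), Hes5 (0.52, FDR 0.0617) and Hes7 (0.34, FDR 0.0515) lost their calls, and Dll1 (0.68, FDR 4.86e-04), Lfng (0.88, FDR 0.0330), Mesp2 (1.69, FDR 0.0390) and Hes1 (-0.76, FDR 2.52e-06) did not. Notch1 also lost its call without d4 Nr6a1-/- replicate 1 (FDR 0.0622), and Hes5 without d4 Nr6a1-/- replicate 2 (0.0675) or replicate 3 (0.0781). Mesp2 fell below the filter and gave no value without d4 Nr6a1-/- replicate 1 or 3.

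Markers of cell types also differed at d4. The summed level of 5 somite markers was 22.4 to 29.2 CPM in wildtype and 192 to 261 in Nr6a1-/- libraries, almost all of the latter from Meox1 (201 ± 29.1 CPM), while Uncx of the same list had no count in Nr6a1-/- libraries and Pax3 was lower (9.27 ± 3.38 against 0.592 ± 0.239 CPM). The sum of 4 presomitic markers was 758 to 909 CPM in wildtype and 660.0 to 758 in Nr6a1-/- libraries, a lower sum that came from Cited1 (633 ± 68.0 against 369.9 ± 40.8 CPM). Of the other presomitic markers, Tbx6 (95.8 ± 7.73 against 191 ± 17.9) and Rspo3 (121 ± 13.1 against 154 ± 2.79) were at higher levels in Nr6a1-/- libraries, and Msgn1 was at 3.02 ± 1.70 against 2.26 ± 0.604 CPM. Neural markers summed to 17.7 to 23.5 CPM against 2.60 to 5.11, and endoderm markers to 36.7 to 47.1 against 2.56 to 8.71, both lower in Nr6a1-/- cells, with Cer1 of the endoderm list at 0 throughout. The part of these marker changes in the levels of the clock genes was not tested.

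**Figure D3:**
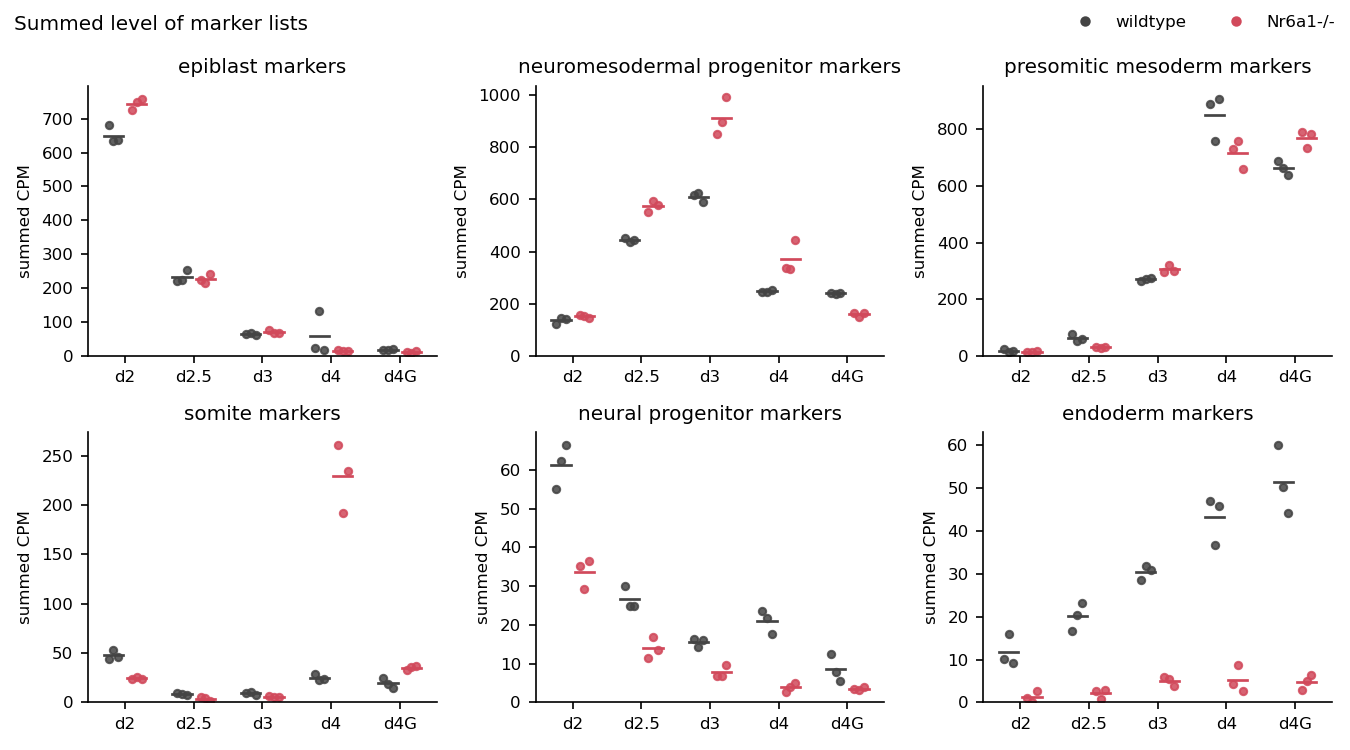
Summed CPM of 6 marker lists of 4 or 5 genes each in 30 libraries, by stage, on linear axes from 0. Points are libraries, dark for wildtype and red for Nr6a1-/-, and short lines are means of 3; d4 wildtype replicate 2 has 134 CPM of epiblast markers, and the somite list reaches 192 to 261 CPM in d4 Nr6a1-/- libraries.

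After 24 h of Gdf11, 2 of the 8 genes differed between genotypes, where 7.90% of all genes were called. Dll1 was at 65.1, 65.8 and 86.9 CPM in wildtype and 126, 109.5 and 105 in Nr6a1-/- libraries (0.64 ± 0.14, FDR 0.00236), and Hes1 at 609, 602 and 578 against 486, 494 and 472 (-0.30 ± 0.09, FDR 0.0278). Every Nr6a1-/- library was higher for Dll1 and lower for Hes1. The Hes1 call at this stage was lost without either replicate 1 or 2 of wildtype or any replicate of Nr6a1-/- (FDR 0.0645 to 0.0927). Lfng (4.65, 3.65 and 7.17 against 8.18, 9.55 and 14.6 CPM, 1.08 ± 0.36, FDR 0.0555), Hes5 (1.04 ± 0.34, FDR 0.0540), Hes7 (0.63 ± 0.22, FDR 0.0775) and Dll3 (0.37 ± 0.14, FDR 0.117) were also higher in each Nr6a1-/- library than in any wildtype library, but did not pass the test.

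Hes1 was thus the 1 gene of the 8 that differed at all 5 stages. Its log2 fold change ranged from -0.30 at d4G to -0.76 at d4, and in each of the 5 comparisons the highest Nr6a1-/- library lay below the lowest wildtype library. The summed endoderm and neural markers were also lower in Nr6a1-/- cells at all 5 stages without overlap. In Nr6a1-/- cells the endoderm sum at d2 and the neural sum under Gdf11 rested on few counts. Some neural markers with few counts did not go this way, such as Pax6 at d3 (means of 1.71 CPM against 1.21 in wildtype). Endoderm markers were at 0 to 2.66 against 9.29 to 15.9 CPM in wildtype at d2, 0.700 to 2.86 against 16.7 to 23.3 at d2.5 and 2.89 to 6.43 against 44.3 to 60.0 under Gdf11. Neural markers were at 29.2 to 36.4 against 55.1 to 66.4 CPM at d2, 11.5 to 16.8 against 24.8 to 30.01 at d2.5 and 3.18 to 3.86 against 5.48 to 12.6 under Gdf11. Their part in the level of Hes1 was not tested.

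The third question was how the genes responded to Gdf11, compared between d4G and d4 in cells of the same age. The d4 libraries share indexes with d3 and d4G libraries, so a difference between pools cannot be told apart from this response. Hes7, Hes5, Mesp2, Lfng and Dll1 fell in both genotypes, Hes1 rose in both, and Dll3 and Notch1 did not pass the test in either. In wildtype cells this made 1 rise and 5 falls among the 8 genes, against 28.8% of all genes called, and in Nr6a1-/- cells again 1 rise and 5 falls, against 18.0%. Without Mesp2, which was kept by the filter through the d4 Nr6a1-/- group alone, each genotype had 4 falls among 7 genes. The median log2 fold change of the 8, Mesp2 included, was -0.91 in wildtype and -1.0 in Nr6a1-/- cells, against 0.02 and -0.02 over all tested genes. Without Mesp2, the middle value of the 7 was that of Dll1 (-0.77 in wildtype and -0.94 in Nr6a1-/- cells).

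**Figure D4:**
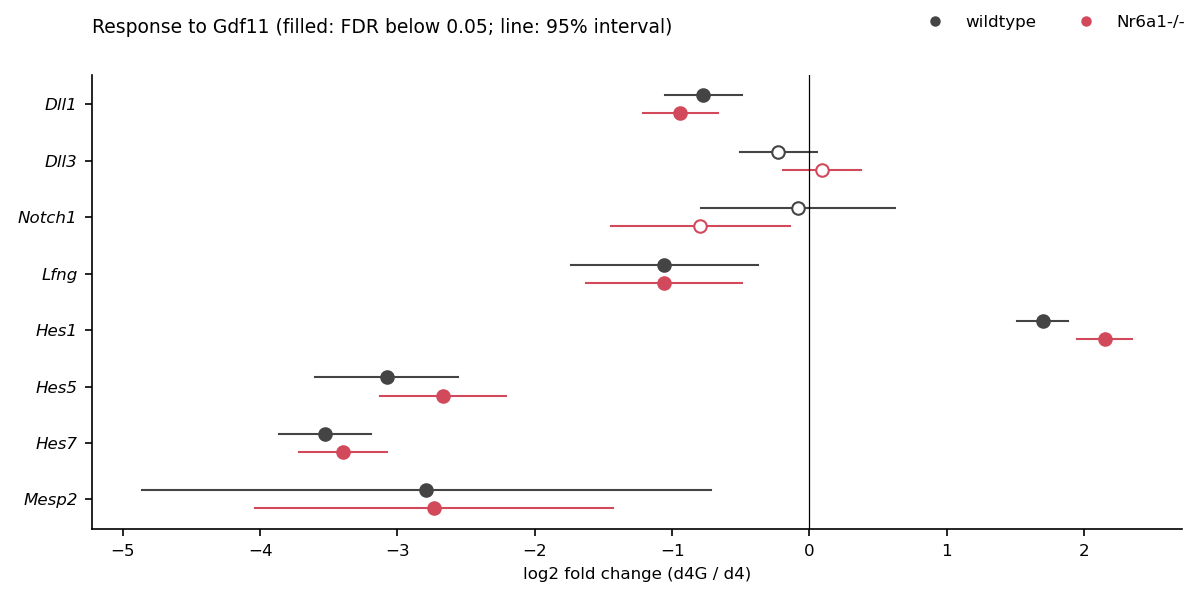
log2 fold change of d4G over d4 for the 8 tested genes in wildtype (dark) and Nr6a1-/- (red) cells, with 95% intervals that are not adjusted for the number of genes. Filled points have an FDR below 0.05; 5 genes fall and Hes1 rises in both genotypes.

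The falls were steepest for Hes7, which went from 171, 121 and 163 CPM at d4 to 11.6, 12.6 and 14.8 at d4G in wildtype libraries (-3.53 ± 0.17, FDR 7.06e-19). In Nr6a1-/- libraries it went from 209, 221 and 210.0 CPM to 19.2, 19.7 and 21.4 (-3.40 ± 0.16, FDR 4.86e-19). At d4G the mean was thus below that of d3 in both genotypes (31.0 ± 5.29 CPM in wildtype and 53.5 ± 7.41 in Nr6a1-/- cells at d3, SD, n = 3). Hes5 fell from 45.3, 36.2 and 43.8 CPM to 6.51, 4.47 and 3.79 in wildtype (-3.08 ± 0.26, FDR 1.14e-11) and from 45.0, 74.5 and 74.6 to 6.73, 14.6 and 9.87 in Nr6a1-/- libraries (-2.67 ± 0.23, FDR 1.08e-11).

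The fall of Lfng and Dll1 was shallower. Lfng dropped to 4.65, 3.65 and 7.17 CPM in wildtype (-1.06 ± 0.34, FDR 0.0162) and to 8.18, 9.55 and 14.6 in Nr6a1-/- libraries (-1.06 ± 0.28, FDR 0.00614). The wildtype call was lost without d4 wildtype replicate 3 (FDR 0.0685), d4G wildtype replicate 1 (0.0542) or d4G wildtype replicate 2 (0.105), and the Nr6a1-/- call without d4G Nr6a1-/- replicate 1 (0.0569). Dll1 dropped to 65.1, 65.8 and 86.9 CPM in wildtype (-0.77 ± 0.14, FDR 5.09e-05) and to 126, 109.5 and 105 in Nr6a1-/- libraries (-0.94 ± 0.13, FDR 1.39e-06), with no d4G library as high as a d4 library of the same genotype.

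Mesp2 was left with 0, 0 and 1 counts in wildtype and 3, 1 and 0 in Nr6a1-/- libraries. The fall passed the test in both (-2.79 ± 1.02, FDR 0.0370, and -2.73 ± 0.64, FDR 0.00196), but that of wildtype, from 3, 4 and 5 counts, was lost without d4 wildtype replicate 1 (FDR 0.0565) or 3 (0.0822) or d4G wildtype replicate 1 (0.114) or 2 (0.138), and without the filter on low counts (0.0904). The fall in Nr6a1-/- cells started from the group through which alone Mesp2 was kept by the filter, and its FDR without the filter was 0.00294.

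Hes1 moved against the rest. It rose from 191, 186 and 175 CPM at d4 to 609, 602 and 578 at d4G in wildtype libraries (1.70 ± 0.09, FDR 7.74e-17) and from 126, 102 and 99.3 to 486, 494 and 472 in Nr6a1-/- libraries (2.15 ± 0.10, FDR 4.52e-19). This was its highest level of the time course in both genotypes. The rise was larger in Nr6a1-/- cells by 0.45 (95% interval 0.18 to 0.72), which did not pass the test over all genes (FDR 0.0583).

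Dll3 stayed at 58.6, 56.8 and 56.1 CPM in wildtype (-0.23 ± 0.14, FDR 0.227) and 84.2, 76.4 and 62.2 in Nr6a1-/- libraries (0.09 ± 0.14, FDR 0.720), and Notch1 at 8.37, 5.68 and 4.22 and 4.33, 8.28 and 9.87 CPM (-0.08 ± 0.35, FDR 0.884, and -0.80 ± 0.32, FDR 0.0819). Thus Dll1 passed the test of a fall in both genotypes and Dll3 gave intervals of -0.51 to 0.05 in wildtype and -0.20 to 0.38 in Nr6a1-/- cells. Nrarp, too sparse to test, had pooled count ratios of d4G over d4 of 1.12 in wildtype (exact 95% interval 0.454 to 2.71) and 1.69 in Nr6a1-/- cells (0.634 to 4.76).

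For none of the 8 genes did the response to Gdf11 differ between the genotypes by edgeR's interaction term, where 2.66% of all genes were called. At an unadjusted p below 0.05 there was 1, Hes1, and DESeq2 called 1. The differences of the fold changes ran from -0.71 for Notch1 to 0.45 for Hes1, and for Hes7 the interval of the difference was -0.37 to 0.64. The comparisons of genotypes, of stages and of Gdf11 share groups, so their values are set side by side here and were not treated as separate evidence.

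The rest of the Notch pathway was covered by 46 genes in lists by role, of which 42 were tested. At d4, 10 of the 42 differed between genotypes (7 higher and 3 lower in Nr6a1-/- cells), or 23.8%, which is near the 18.9% of all genes, with a median log2 fold change of 0.12. At the other stages 0 to 3 were called: 1 at d2, 0 at d2.5, 3 at d3 and 3 at d4G. At d2.5, where edgeR called 0 of the 42, 5 had an unadjusted p below 0.05 and DESeq2 called 0.

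Among the remaining ligands and receptors, 1 of 5 tested was called at d4, where 18.9% of all genes were called. This was Jag1, a ligand of Notch, lower in Nr6a1-/- cells (-1.0, FDR 0.0117). Of 13 genes that process or glycosylate the receptor, 2 were higher and 1 lower at d4, against the same 18.9%. Aph1b, a subunit of the gamma-secretase that releases the active receptor, was higher (1.28, FDR 5.22e-04), as was Adam10, a protease that cuts the receptor (0.79, FDR 0.0183), and Mfng, a glycosyltransferase related to Lfng, was lower (-2.62, FDR 0.00469). Adam10 had been lower at d3 (-0.83, FDR 0.0357), as had Poglut1, which glucosylates Notch (-0.38, FDR 0.0477), and Furin, which cleaves the receptor on its way to the surface, was lower at d2 (-0.86, FDR 0.0353).

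Of the 8 genes of the nuclear complex, 3 were higher at d4, where 18.9% of all genes were called. All 3 are co-activators of the Mastermind family, of which Maml3 was named after its values were seen. Maml2 (0.89, FDR 0.0241) and Maml1 (0.66, FDR 0.0324) had the largest changes, with Maml3 next (0.58, FDR 0.0106). Of 12 tested modulators, Dlk1, a ligand-like protein without the usual Notch-binding part, was higher from d3 on, by 1.58, FDR 0.00208, at that stage, then by 2.18, FDR 5.51e-09, and with Gdf11 by 2.62, FDR 1.86e-14. Mib1, the ubiquitin ligase that makes Delta ligands active, was higher at d4 (0.67, FDR 2.02e-04), and Dtx4, of the Deltex family, lower (-1.06, FDR 0.0115).

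Of 4 tested genes among the other Hes and Hey repressors, Hey2 was lower in Nr6a1-/- cells at d4G (-1.41, FDR 0.00626). It was the 1 call between genotypes in this list, at a stage where 7.90% of all genes were called. Under Gdf11, 3 of these 4 rose in wildtype cells, Hey2 (2.57, FDR 1.39e-06), Hey1 (1.35, FDR 3.12e-05) and Hes6 (1.11, FDR 7.97e-10), and 1 fell, Hes3 (-4.81, FDR 0.00365). Over all lists of the pathway, 19 of 42 genes changed with Gdf11 in wildtype cells (13 up and 6 down) and 13 of 42 in Nr6a1-/- cells (8 up and 5 down), against 28.8% and 18.0% of all genes. Notch3 rose in both genotypes (1.43, FDR 5.69e-08 in wildtype, and 1.43, FDR 1.38e-07 in Nr6a1-/- cells), whereas Notch2 and Notch4 were called in wildtype cells only (1.31, FDR 9.10e-04, and 1.59, FDR 0.00405), but edgeR's interaction term called 0 of the 42 genes (unadjusted p below 0.05 for 4, and 0 called by DESeq2).

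The clock has a Wnt and FGF arm that oscillates in turn with the Notch genes, and 11 of its genes were all tested. Directly after Wnt activation, at d2.5, 4 of the 11 were higher in Nr6a1-/- cells (6.45% of all genes were called in either direction), Snai1 (1.63, FDR 0.0188) and Dusp6 (0.99, FDR 0.0116) by the largest fold changes. At d2, Dkk1 (-2.66, FDR 0.0313) and Axin2 (-1.60, FDR 1.95e-04), inhibitors that Wnt itself induces, were lower, and at d3 Sp5, a Wnt target, was higher (0.34, FDR 0.0110). At d4 (background 18.9%), 4 were higher, led by the FGF antagonist Spry4 (1.53, FDR 1.39e-06) and the FGF-induced phosphatase Dusp6 (1.02, FDR 0.00188), and 3 were lower, led by Dkk1 (-3.05, FDR 1.06e-14) and Nkd1 (-0.91, FDR 5.83e-07), another Wnt inhibitor. At d4G (background 7.90%), 4 were higher, led by Dusp6 (1.27, FDR 7.62e-04) and Spry4 (0.98, FDR 0.00320), and Dkk1 (-1.86, FDR 1.85e-13) and Nkd1 (-0.62, FDR 2.67e-04) were lower.

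Of 13 presomitic and somite genes, 8 were tested. At d4, where 18.9% of all genes were called, 6 of the 8 were higher in Nr6a1-/- cells, with Meox1 of the somite (5.67, FDR 3.60e-20) and Mesp1, the neighbour and relative of Mesp2 (4.70, FDR 7.28e-07), far ahead, and Pax3 was lower (-3.80, FDR 5.81e-07). A gene could enter the test by being high in a single group. Through which group Mesp1 and the others of this list passed the filter is not given here. At d3, Tbx6, the factor that commits cells to paraxial mesoderm and activates Dll1 and Mesp2, was higher (1.00, FDR 4.30e-04), as was Epha4 (0.75, FDR 4.18e-04), with Pax3 lower (-1.81, FDR 0.0228). Epha4, an ephrin receptor of segment boundaries, was also higher at d2.5 (1.57, FDR 7.85e-08), and Tcf15, a factor of the somite epithelium, was lower at d2 (-0.99, FDR 0.00397). At d4G, Meox1 (4.05, FDR 5.66e-09) and Tbx6 (0.83, FDR 6.57e-06) were higher.

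To place each gene among all genes, those with the most similar profile over the 30 libraries were taken by Pearson's r of log2 CPM, as a description only, since all points share their library, stage and depth. Tbx6 was closest to both ligands (r = 0.970 for Dll1 and 0.953 for Dll3), followed by Rftn1 and Gpc3 for Dll1 and by Plxna2 and Ets2 for Dll3. Arg1 was closest to Hes7 (r = 0.961) and Foxc2 to Hes5 (r = 0.927), Akr1e1 to Notch1 (r = 0.933) and Gm18492 to Lfng (r = 0.907). Hes1 had another set of neighbours, Btg2 (r = 0.933), Tbx3 and Qsox1, and Mesp2, on few counts, had no close one (Slc38a8, r = 0.741). Among the genes themselves, r was 0.902 between Dll1 and Dll3, 0.154 between Hes1 and Hes7 and -0.38 between Hes1 and Mesp2.

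The second gene by likeness to Hes7 was 9130213A22Rik (r = 0.951), whose exons overlap those of Hes7 on the other strand. It was at 13.7 ± 1.32 CPM in d4 wildtype and 20.8 ± 4.58 in d4 Nr6a1-/- cells and fell under Gdf11 in wildtype (-2.31 ± 0.38, FDR 1.30e-05). A930024N18Rik, which overlaps Dll1 in the same way and is named after its values were seen, was higher in Nr6a1-/- cells at d4G (3.32 ± 0.81, FDR 0.00589), at 0.310 ± 0.537 against 3.33 ± 0.128 CPM. If the counting did not use strand, reads of these genes and of their partners cannot be told apart.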

How the data were processed

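RNA was measured in 30 libraries of 10 groups (5 stages by 2 genotypes, 3 replicates each), grouped by the sample labels. The labels call replicates separate samples and do not say whether they were separate cultures, so p-values measure the spread between these samples, which may be technical. Libraries were primed on poly(A) tails, with an index and a molecular identifier. The authors deposited a table of raw counts, whole numbers for every gene in each library, made with STAR on mm10 and analysed with edgeR per the submitters' processing notes. Use of strand, collapse of identifiers, annotation and versions are not given in the sources used here, and intervals on counts are for counting error alone. A further deposited table for each stage holds the authors' own fold changes, p-values, FDR, counts and CPM of selected genes and was not used. All 30 columns of the count table were matched to a sample by name, and 0 were left over.

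The filter asked for over 10 counts and over 2 CPM in 2 or more libraries of the same group (12149 of 54134 rows, at least 99.2% of each library's counts). After TMM scaling (factors 0.909 to 1.05), edgeR 4.0.16 under R 4.3.3 fitted the 10 groups jointly, leaving 20 residual degrees of freedom. In all, 16 comparisons were tested with glmQLFTest, 2-sided: genotypes at each stage, the successive stages and Gdf11 in each genotype, and 3 interactions. An FDR below 0.05 was called. Each SE was derived as the absolute fold change over the root of the F statistic. The fit was tested on simulated data. Replicate pairs differed by a chi-square per gene of 1.45 to 6.68 over 30 pairs, so none was taken as 1 library deposited in duplicate. Promoter letters were searched in RefSeq sequences (GRCm38.p6).

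The genes and lists were chosen with earlier results of these data known. All 10 genes are named, with the 2 called genes of largest fold change in each direction per list and comparison of genotypes, and the 3 genes of most similar log2 CPM (prior count 2) among those whose mean reached 10 CPM in some group. Maml3 and the other list genes named under Gdf11 were chosen after their values were seen. The values of 1 list gene are not reported here. Alternatives were RLE factors, no factors, no filter, only the groups compared, DESeq2 1.42.0, thinning to the smallest total, a replicate block, and each library left out.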

Additional observations from a re-analysis of the deposited data

Results flagged for a closer look

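The step from d2 to d3 differed between genotypes for Dll1 and the step from d3 to d4 for Hes5, Adam10, Maml2, Aph1b and Mib1, each by an interaction term in edgeR's quasi-likelihood test adjusted over all tested genes. Dll1 rose more in Nr6a1-/- than in wildtype cells by 1.66 on the log2 scale (FDR 0.0163), from a lower start and to a higher end. Hes5 rose more by 1.93 (FDR 0.0251), with 1 to 13 counts per library at d3. Adam10, a protease that cuts Notch, differed by 1.62 (FDR 0.00377), being lower in Nr6a1-/- cells at d3 and higher at d4. Maml2 differed by 1.55 (FDR 0.0484), Aph1b by 1.27 (FDR 0.0389) and Mib1 by 0.71 (FDR 0.0191). The interaction of Dll1 lost its call in 4 of 19 alternatives and that of Hes5 in 5 of 19. Those of Adam10, Maml2, Aph1b and Mib1 were not put through the alternatives. The step from d3 to d4 may also hold a difference between pools. Of all tested genes, 2.27% were called by the interaction from d2 to d3 and 5.72% by that from d3 to d4. Groups of 3 libraries were not tested for single samples that stand apart.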

How the results depend on the processing

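Of 50 fold changes of single genes that were called, 37 kept their call and direction under each alternative that could be computed, and no called value changed sign. The number of the 8 genes called moved by more than 1.5 times in these cases. At d2 it was 2 in place of 1 without a filter and with only the groups compared, Dll1 joining. At d2.5 it was 0 in place of 1 without a filter and after thinning. The interaction of d4G with d4 gave 1 (Hes1) in place of 0 with DESeq2. Those of d3 with d2 and d4 with d3 gave 0 in place of 1 after thinning, the latter also with only the groups compared. With 1 library left out, 0 to 1 genes were called at d2.5 and in each of the 3 interactions, 4 to 7 at d4 and 1 to 3 at d4G. Without d4 Nr6a1-/- replicate 3, the fold change of Dll3 between genotypes at d4, which was not called, was -0.0849 in place of 0.05 (-0.0849 to 0.167 over the 6 libraries left out). With DESeq2, Hes5 (FDR 0.0556) and Mesp2 (0.0578) were not called at d4. The causes of these changes were not tested.

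Replicate numbers did not pair the libraries: 0 of 15 same-numbered pairs of wildtype and Nr6a1-/- had deviations from their group means that correlated above 0.1, and 9 of 30 libraries were closest to their own number. With a replicate block, 4 in place of 2 genes were called at d4G (Hes5 and Lfng joining), and the counts of the other 15 comparisons did not move. Depth limited Nrarp, Ripply2 and Mesp2 at all stages, and Notch1, Lfng and Hes5 up to d3, which had 0 to 20 counts per library.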

Other observations

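At d4, Notch1, Hes5 and Hes7 lost their calls without the library d4 wildtype replicate 2. Notch1 and Hes5 also lost theirs without certain single d4 Nr6a1-/- libraries, as given above. Marker levels of d4 wildtype replicate 2 differed from those of the other d4 wildtype libraries. Its summed epiblast markers were 134 CPM against 23.1 and 18.6 in the other d4 wildtype libraries. Its NMP markers (244 CPM against 245 and 252) and its somite markers (22.4 against 29.2 and 23.7) were within or just below the range of the others, and its presomitic markers were lower (758 against 891 and 909). Whether this makes up the lower Notch1, Hes5 and Hes7 of that library was not tested.

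Foxf1, 1 of 4 lateral mesoderm markers, was at 35.3 ± 19.9 CPM at d4G in wildtype and 35.5 ± 19.2 in Nr6a1-/- cells, against 6.86 ± 4.74 and 0.862 ± 0.866 at d4 (SD, n = 3), alongside the fall of Hes7, Hes5 and Lfng. The other markers of that list were near the floor, with Hand1 at 1.85 and 0.745 CPM, Tbx4 at 1.55 and 1.53 and Hand2 at 0 at d4G. Markers of feeder fibroblasts were between 13.1 and 41.4 CPM at d4 and d4G.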
